A study of Mus musculus with 4 samples.

Results

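The genes described here encode 8 secreted carrier and plasma proteins that are known products of the visceral endoderm: Afp, Alb, Ttr, Trf, Rbp4, Ahsg, Spp2 and Ambp. The list was selected on carrier function and on the log2 fold changes already known between Trim33-deficient and Control embryoid bodies, although not each gene on it differed, and its genes were found by symbol among the 24015 genes counted in each library. Their differences are therefore a description, and the p-values printed for them are those of the authors' deposited table. Calls from fits over all genes are only counted, beside the share of all genes called. Of the 8 genes, 7 had at least 1 count and 5 passed a filter on low counts. The RNA came from embryoid bodies, suspended clusters of differentiating mouse embryonic stem cells, harvested on day 7. There were 2 libraries of Trim33-deficient bodies, in which 4-hydroxytamoxifen given on day 4 induced the deficiency, and 2 Control libraries, labelled as wild type. The stem cell lines were from an outbred strain, had 2 floxed copies of Trim33 and carried the UbcCreERT2 transgene, a tamoxifen-activated Cre under the ubiquitin C promoter, which is active in most cell types rather than in endoderm alone. The labels describe this background for the cell lines in general. They do not settle whether the Control bodies carried it or received 4-hydroxytamoxifen.

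Visceral endoderm is the epithelium that covers the early mouse embryo. It absorbs maternal nutrients by endocytosis and, before a liver exists, secretes many of the proteins that the liver later releases into blood. Carrier proteins hold poorly soluble or reactive cargo in such fluids: retinol is carried by RBP4 bound to transthyretin, iron by transferrin, and fatty acids by alpha-fetoprotein and albumin.

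Counts in genes per library were 13808837 and 12109547 in Trim33-deficient bodies and 12390541 and 10422738 in Control bodies. Trim33 itself had 608 and 495 counts in the Trim33-deficient libraries and 1203 and 1117 in the Control libraries, so 42.6% of its level was left. Counts per gene do not separate full-length Trim33 transcripts from those without the floxed exons. Levels are given as CPM, counts divided by library size after scaling by the trimmed mean of M values (TMM). A value after ± is an SD over n = 2 libraries, and log2 fold changes are edgeR estimates with their standard error (SE). The 8 genes together held 78.3 and 84.7 CPM in the Trim33-deficient libraries, against 634.6 and 651.2 CPM in the Control libraries. That left 12.7% of the summed level, a 7.89-fold lower total. In RNA from whole bodies, fewer cells of a type and less RNA per cell cannot be told apart.

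Rbp4 encodes the plasma retinol carrier. Its level was 42.1 and 53.0 CPM in the Trim33-deficient libraries, against 111 and 220.0 CPM in the Control libraries. The groups were apart, and the Control libraries differed from each other by 1.98 times. Group means were 47.6 ± 7.72 CPM in Trim33-deficient and 166 ± 76.9 CPM in Control bodies (SD, n = 2 each), a log2 fold change of −1.80 (SE 0.36). Of the 5 genes that passed the filter, Rbp4 had the smallest difference and kept the most of its level, 28.7%. Its size depended on 1 library: it was 3.48-fold lower by group means, and the fit gave a 2.33-fold lower level without Control replicate 2 and a 4.64-fold lower one without Control replicate 1.

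Ttr encodes transthyretin, which binds thyroxine and also holds RBP4 in the circulation. The Trim33-deficient libraries had 22.9 and 15.3 CPM and the Control libraries 83.9 and 126 CPM. The groups did not overlap. Means were 19.1 ± 5.36 CPM in Trim33-deficient and 105 ± 29.5 CPM in Control bodies (SD, n = 2 each), and the log2 fold change was −2.45 (SE 0.30), a 5.49-fold lower level. Like Rbp4, Ttr was higher in Control replicate 2 than in replicate 1, by 1.497 times. Per kilobase of the longest transcript, Rbp4 stood at 1.88 and 3.54 times Ttr in the Trim33-deficient libraries and at 1.36 and 1.79 times Ttr in the Control libraries.

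Afp encodes alpha-fetoprotein, the albumin relative that dominates fetal plasma and is a classical product of visceral endoderm and fetal liver. It had 10.02 and 12.04 CPM in the Trim33-deficient libraries, against 385 and 258 CPM in the Control libraries. The Trim33-deficient libraries were close to each other and far below either Control library. Means were 11.0 ± 1.43 CPM in Trim33-deficient and 322 ± 89.7 CPM in Control bodies (SD, n = 2 each). The log2 fold change was −4.87 (SE 0.27), a 29.2-fold lower level with 3.43% left. Only 8 of 14259 tested genes had a lower log2 fold change than Afp, and 1 of them was Spp2. Over the left-out libraries the difference ran from 23.5-fold lower without Control replicate 1 to 34.8-fold lower without Control replicate 2.

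Alb, the albumin gene, lies beside Afp on chromosome 5 and encodes the main carrier of adult plasma. It was listed at 0 counts in all 4 libraries, and the limit that a count of 0 allows was 0.216 and 0.256 CPM in the Trim33-deficient and 0.232 and 0.293 CPM in the Control libraries (3 counts per library, for counting error only). A listed 0 does not by itself show that a transcript was missing: 5448 of the 24015 genes were at 0 in all 4 libraries, and Mia3, a cargo receptor gene expressed in most cells, was among them. No fold can be given for Alb.

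The promoter windows of Afp and Alb are shown because these are neighbouring relatives, one of them well expressed in Control bodies and the other counted at 0. Each window runs from 250 bases before to 50 after the annotated RefSeq start (GRCm38.p6), 5′ to 3′ on the gene's strand. Capitals mark matches, on either strand, to 6 short motifs: CAAAGT for HNF4, AGATAA for GATA factors, TGTTTNC for FOXA factors, CAGAC for SMADs, CCAAT, and TATAAA. The Afp window is chr5:90490464-90490763 and the Alb window chr5:90460620-90460919, both on the plus strand.
Afp: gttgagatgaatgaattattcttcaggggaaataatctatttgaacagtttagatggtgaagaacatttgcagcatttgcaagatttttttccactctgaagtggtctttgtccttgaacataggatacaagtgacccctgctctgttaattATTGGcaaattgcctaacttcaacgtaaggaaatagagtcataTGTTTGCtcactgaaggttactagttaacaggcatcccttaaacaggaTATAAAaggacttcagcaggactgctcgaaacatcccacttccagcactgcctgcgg
Alb: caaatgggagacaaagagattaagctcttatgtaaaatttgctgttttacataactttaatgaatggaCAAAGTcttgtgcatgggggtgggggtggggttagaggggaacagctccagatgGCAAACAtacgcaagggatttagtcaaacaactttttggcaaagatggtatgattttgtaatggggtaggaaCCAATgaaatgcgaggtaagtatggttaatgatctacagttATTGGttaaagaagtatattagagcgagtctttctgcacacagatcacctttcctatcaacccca
Both windows held a FOXA and a CCAAT match. The FOXA match began 55 bases before the annotated start in Afp and 128 bases before it in Alb. The Alb window also held a CAAAGT match, 182 bases before the start. The TATAAA match in the Afp window began 7 bases before the start. Each window had 40% G and C, against a median of 52.7% over all 32851 windows. TGTTTNC was in 20.5% of all windows, CAAAGT in 14.4%, CCAAT in 37.4% and TATAAA in 13.6%. A match describes letters in a window and not a bound site.

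Trf encodes transferrin, which carries ferric iron to cells. Trim33-deficient libraries had 3.03 and 3.67 CPM, against 44.0 and 38.3 CPM in Control libraries. The replicates of each group were close, and the groups did not overlap. Means were 3.35 ± 0.455 CPM in Trim33-deficient and 41.1 ± 4.02 CPM in Control bodies (SD, n = 2 each). The log2 fold change of −3.62 (SE 0.22), or 12.3-fold lower, was the most even across libraries of the 5 genes, between −3.76 and −3.48 over the 4 left-out libraries.

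Spp2 encodes a secreted phosphoprotein of bone and plasma, related to the cystatins and able to bind BMP ligands. It had 0 and 5 counts in the Trim33-deficient libraries and 123 and 79 in the Control libraries. Means were 0.214 ± 0.302 CPM in Trim33-deficient and 8.61 ± 1.27 CPM in Control bodies (SD, n = 2 each). The ratio of summed counts was 0.0224, with an exact 95% binomial interval of 0.00721 to 0.0532 for counting error. The fitted log2 fold change was −5.36 (SE 0.997), and without Trim33-deficient replicate 1, the library at 0, the level was 19.6-fold lower. In the pair numbered 1, where the Trim33-deficient library had 0 counts, the level was at least 43.9-fold lower when set against the floor of 3 counts per library. Spp2 passed the filter only through its counts in Control bodies, so a gene like it could enter the comparison only by being lower.

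The remaining pair were near the detection limit. Ambp encodes a precursor that is cut into alpha-1-microglobulin, a heme-binding lipocalin, and bikunin, a protease inhibitor. It had 3 and 1 counts in the Trim33-deficient libraries and 8 and 13 in the Control libraries, a ratio of summed counts of 0.173 (exact 95% binomial interval 0.0431 to 0.512). Ahsg encodes fetuin-A, a cystatin relative that keeps calcium phosphate in solution. It had 0 and 2 counts in the Trim33-deficient and 2 and 1 in the Control libraries, and its interval of 0.0505 to 5.28 includes equal levels. A difference in Ahsg was not detectable at this depth.

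**Figure D1:**
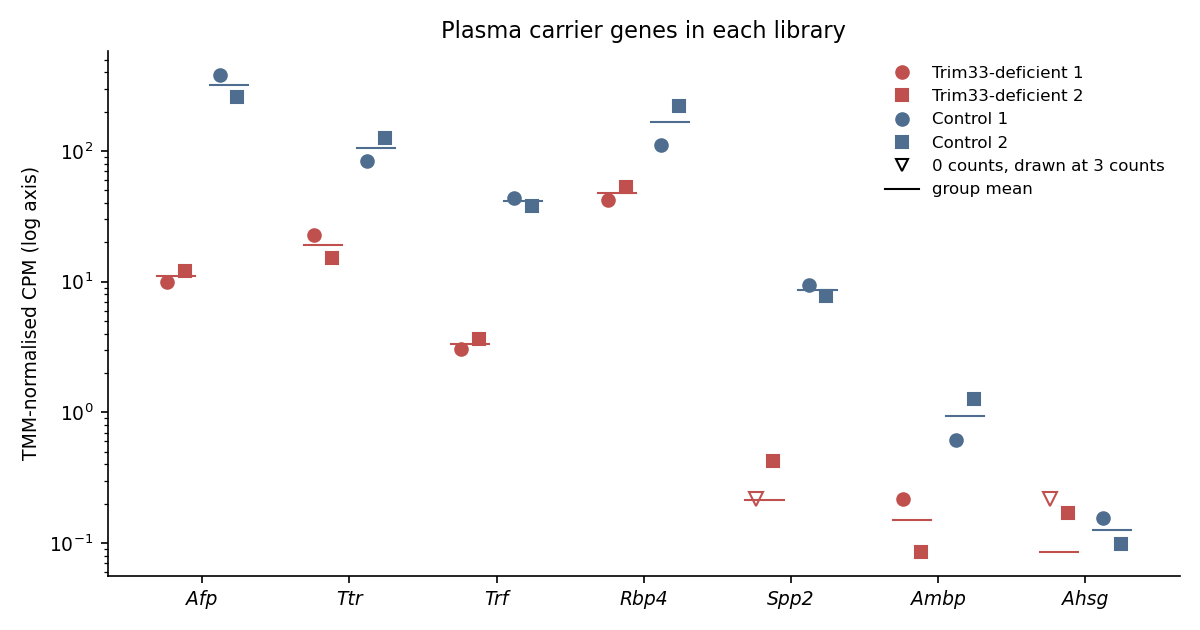
Level of 7 carrier genes in each library, as TMM-normalised CPM on a log axis, with a bar at each group mean and open triangles for 0 counts drawn at the floor of 3 counts (means take them as 0); Alb, at 0 in all libraries, is left out. For Afp, Ttr, Trf, Rbp4, Spp2 and Ambp both Trim33-deficient libraries sit below both Control libraries.

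The log2 fold change was below 0 for 5 of the 5 genes that passed the filter, beside 50.2% of the 14259 genes tested. For 5 of 5 the groups did not overlap and Trim33-deficient libraries were the lower ones, beside 21.4% of all genes tested, while 19.3% did not overlap in the other direction. The edgeR quasi-likelihood test called 0 of these 5 lower at an adjusted p under 0.05, beside 0.014% of all genes tested, and 0 higher. At an unadjusted p under 0.05 it took 5 of 5 as lower, beside 4.78% of all genes, and 0 as higher, beside 3.06%. DESeq2 called 5 of the 6 for which it gave an adjusted p, beside 0.702% of genes lower and 0.143% higher in that fit, edgeR's likelihood ratio test 5 of 5 beside 0.982%, and limma voom 0 of 5 beside 0%. Because the genes were chosen with this contrast known, these shares describe them and support nothing further. Spp2, one of the 5, passed the filter only through its Control counts, so its direction was fixed on entry. The median log2 fold change of the 5 was −3.62, beside −0.0014 over all tested genes.

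Libraries were also set side by side by replicate number. Afp was at −5.26 in pair 1 and −4.42 in pair 2 on the log2 scale, and Trf at −3.86 and −3.38. Both were larger in pair 1. Ttr was at −1.88 in pair 1 and −3.04 in pair 2, and Rbp4 at −1.40 and −2.05, so this retinol carrier pair had the larger difference in pair 2. Spp2 was at −4.17 in pair 2.

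**Figure D2:**
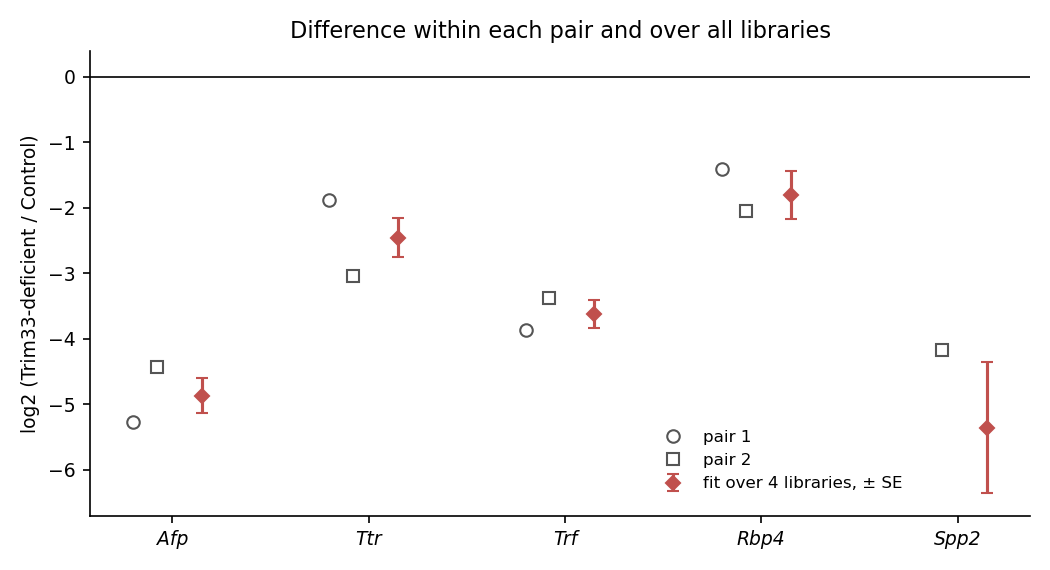
Log2 ratio of Trim33-deficient to Control CPM for 5 carrier genes within pair 1 (open circles) and pair 2 (open squares), beside the edgeR log2 fold change over 4 libraries with its SE (diamonds); Spp2 has no value in pair 1, where 1 library had 0 counts. All values are below 0, from −1.40 for Rbp4 in pair 1 to −5.36 for the Spp2 fit.

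The make-up of the carrier pool differed between the groups. Afp made up 12.8% and 14.2% of the summed CPM in the Trim33-deficient libraries, against 60.7% and 39.7% in the Control libraries. Rbp4 made up 53.8% and 62.6% in the Trim33-deficient libraries and 17.5% and 33.8% in the Control libraries. Ttr, at 29.2% and 18.04% in Trim33-deficient and 13.2% and 19.3% in Control libraries, overlapped between the groups. Trf was at 3.87% and 4.34% in Trim33-deficient and 6.93% and 5.88% in Control libraries. The summed level of the Control libraries was nearly equal although Afp stood higher in replicate 1 and Rbp4 and Ttr higher in replicate 2.

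The order of the carriers per kilobase of transcript differed between the groups. The order of mean levels in Trim33-deficient bodies was Rbp4 at 41.0, Ttr at 16.1, Afp at 5.35, Trf at 1.30, Spp2 at 0.230, Ambp at 0.119 and Ahsg at 0.0576 CPM per kilobase. In Control bodies it was Afp at 156, Rbp4 at 143, Ttr at 88.3, Trf at 16.0, Spp2 at 9.28, Ambp at 0.744 and Ahsg at 0.0850 CPM per kilobase. Over the Control libraries the range of Rbp4 overlapped those of Afp and Ttr, while the ranges of Afp and Ttr did not overlap. Within each Control library both Afp and Rbp4 lay above Ttr. Afp had 187 and 125, Rbp4 95.8 and 190 and Ttr 70.8 and 106 CPM per kilobase in replicates 1 and 2. Among 18381 detected genes with a known length, Afp lay above 52.4% in Trim33-deficient bodies and above 98.8% in Control bodies. Rbp4 lay above 90.2% in Trim33-deficient and 98.6% in Control bodies, so it remained among the higher genes.

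**Figure D3:**
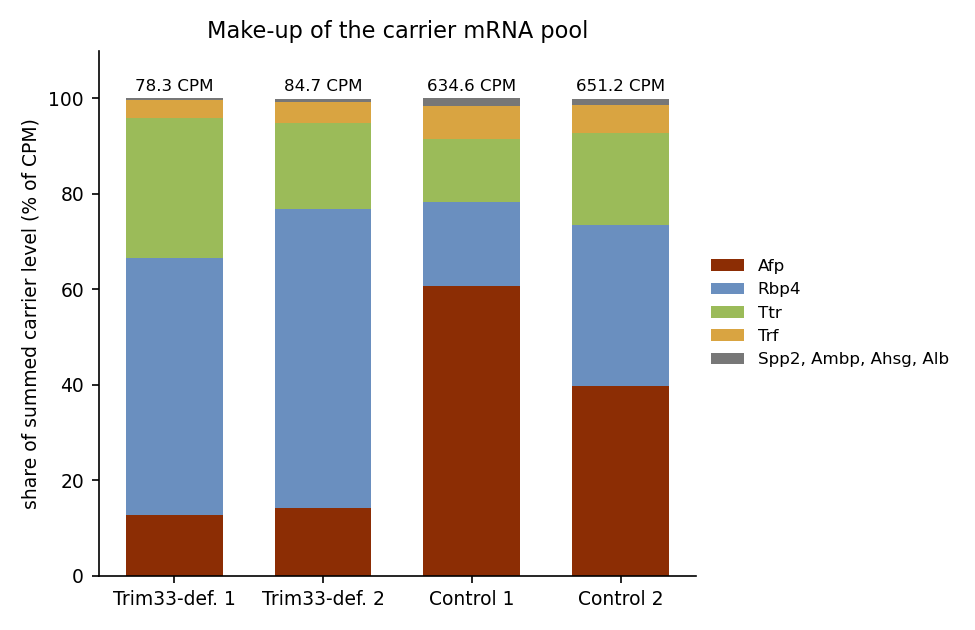
Share of each carrier gene in the summed CPM of the 8 genes, one bar per library, with the sum printed above it. Afp takes 12.8% and 14.2% of the sum in Trim33-deficient libraries and 60.7% and 39.7% in Control libraries, and Rbp4 is the largest part in both Trim33-deficient libraries.

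Promoter windows for the genes with the smallest and largest fitted difference, Rbp4 and Spp2, are shown for contrast. RefSeq gives Rbp4 a pair of starts, and the window printed, chr19:38124762-38125061 on the minus strand, is the one rich in G and C (72.0%). The Spp2 window is chr1:88406760-88407059 on the plus strand, with 46.3% G and C. Both are from GRCm38.p6, with capitals as above.
Rbp4: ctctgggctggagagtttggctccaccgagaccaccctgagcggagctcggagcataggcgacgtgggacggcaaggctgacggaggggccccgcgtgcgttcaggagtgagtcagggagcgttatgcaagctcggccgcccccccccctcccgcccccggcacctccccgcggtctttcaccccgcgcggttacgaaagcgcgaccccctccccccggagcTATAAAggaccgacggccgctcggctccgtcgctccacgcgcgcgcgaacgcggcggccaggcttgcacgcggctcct
Spp2: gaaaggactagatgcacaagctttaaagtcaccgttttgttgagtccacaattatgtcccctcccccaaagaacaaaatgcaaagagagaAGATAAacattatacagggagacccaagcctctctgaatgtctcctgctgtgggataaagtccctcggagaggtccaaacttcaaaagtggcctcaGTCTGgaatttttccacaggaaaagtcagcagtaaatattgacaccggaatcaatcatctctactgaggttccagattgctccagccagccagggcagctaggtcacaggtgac
The Rbp4 window held 40 CG dinucleotides, against 3 in each of the Afp, Alb and Spp2 windows and a median of 7 over all windows. The other Rbp4 window, not printed, had 40.7% G and C and 5 CG dinucleotides, close to the Afp and Alb windows. In the printed window the motif match was a TATAAA, 28 bases before the start. In the Spp2 window an AGATAA match began 160 bases before the start and a CAGAC match, on the other strand, 64 bases before it. AGATAA was in 11.2% of all windows and CAGAC in 49.6%. Of the 6 carrier genes with a window in the table (all but Trf and Ttr), 2 held a CAAAGT match (Alb and Ahsg), 5 a TGTTTNC match, 5 a CCAAT match, 3 a CAGAC match, 2 an AGATAA match and 2 a TATAAA match. These counts pool both Rbp4 windows: its TGTTTNC and CCAAT matches were in the window not printed and its TATAAA match in the printed one. In the Ahsg window a CAGAC and a CAAAGT match overlapped.

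The tested genes next to Ttr, Trf and Rbp4 had log2 fold changes nearer to 0 than those carriers. Afp and Spp2 had no tested neighbour. Alb, Ahsg and Ambp had no fitted value to set beside their neighbours. Srprb, beside Trf, encodes a subunit of the signal recognition particle receptor and had a log2 fold change of −0.02 (SE 0.12). Dsg2 and B4galt6, on either side of Ttr, were at 0.06 (SE 0.10) and 0.17 (SE 0.25). Dnajb11, a chaperone gene of the endoplasmic reticulum beside Ahsg, was at 0.35 (SE 0.13), and Zfp618 beside Ambp at 0.13 (SE 0.23). Kif12, a kinesin gene on the other side of Ambp, had 29 and 10 counts in Trim33-deficient and 35 and 36 in Control libraries, a log2 fold change of −1.06 (SE 0.56). Afm, the albumin family gene that follows Afp, had 1 and 2 counts in the Trim33-deficient and 4 and 0 in the Control libraries. Pde6c, a phosphodiesterase gene beside Rbp4, was also scarce, with 0 and 2 counts in the Trim33-deficient and 7 and 9 in the Control libraries.

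Relatives of the carriers by protein family were mostly scarce. Of 15 relatives listed, 7 were tested 6 of them below 0, and their median log2 fold change of −0.15 compares with −0.0014 for all tested genes. Over 13 alternative settings that median ran from −1.27 to 0.48. Apom, a lipocalin that carries sphingosine-1-phosphate on lipoproteins, had 154 and 127 counts in the Trim33-deficient and 538 and 836 in the Control libraries. Its log2 fold change was −2.49 (SE 0.37). Gc, the lowest of the tested relatives, had 6 and 2 counts in the Trim33-deficient and 55 and 18 in the Control libraries. Its fitted log2 fold change was −3.25 (SE 0.76). Cst3, the widely expressed cystatin C gene, was at −0.04 (SE 0.13), and Kng1, encoding kininogen, at −0.15 (SE 0.97). The edgeR test called 0 of the 7, beside 0.014% of all genes. At an unadjusted p under 0.05 it took 2 as lower, beside 4.78%, and 0 as higher, beside 3.06%. DESeq2 called 1 of 8 lower, Apom, beside 0.702%.

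Other secreted plasma proteins varied widely, with log2 fold changes from −3.96 to 0.93 among those tested. This list shares 7 genes, Apom and Gc among them, with the list of relatives. Of 34 listed, 14 were tested, with 10 below 0 and 4 above, and a median log2 fold change of −0.86. The edgeR test called 0 of these, beside 0.014% of all genes. At an unadjusted p under 0.05 it took 5 as lower, beside 4.78%, and 0 as higher, beside 3.06%. DESeq2 called 4 of 18 lower, beside 0.702%, and 0 higher, beside 0.143%. The 4 were Serpinf2, Apom, Igfbp1 and Sepp1. The lowest were Serpinf2 at −3.96 (SE 0.54), Igfbp1 at −3.51 (SE 0.84) and Gc at −3.25 (SE 0.76). Each of these passed the filter only through its Control counts. Sepp1, which encodes the selenium carrier selenoprotein P, was at −1.92 (SE 0.21), and Cp, encoding the copper-carrying ferroxidase ceruloplasmin, at −0.92 (SE 0.40). Serpinf1, encoding the anti-angiogenic factor PEDF, was at 0.86 (SE 0.35), and its groups did not overlap. Another 8 of the 34, among them Orm1, Apoh and Serpina6, were at 0 in all libraries. Reads of the near-identical Serpina1 copies can be split or lost, so those genes are uncertain.

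The genes that receive what the carriers bring were listed too. Of 14 iron uptake and storage genes 11 were tested, with 6 below 0, 5 above and a median log2 fold change of −0.01, which ran from −0.24 to 0.11 over 13 alternatives. Tfrc, the transferrin receptor gene, was at −0.20 (SE 0.37), and the ferritin genes Fth1 and Ftl1 at 0.11 (SE 0.15) and 0.09 (SE 0.14). Ireb2, encoding an iron sensor that controls them, was at 0.20 (SE 0.11). DESeq2 and edgeR called 0 of these. At an unadjusted p under 0.05 edgeR took 0, beside 4.78% of all genes lower and 3.06% higher. Transferrin mRNA itself was 12.3-fold lower in the same libraries.

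Retinol and thyroid hormone handling genes had 13 of 17 tested, 8 below 0 and 5 above, with a median log2 fold change of −0.59, which ran from −0.63 to −0.19 over 13 alternatives and was nearest to 0 without Control replicate 1. Rdh10, which starts the conversion of retinol to retinoic acid, was at 0.30 (SE 0.13). The retinoic acid binding genes Crabp1 and Crabp2 were at −0.94 (SE 0.54) and −0.62 (SE 0.37), with overlapping groups, and Thra, a thyroid hormone receptor gene, at 0.06 (SE 0.36). Both tools called 0 of these genes. At an unadjusted p under 0.05 edgeR took 1 of 13 as lower, beside 4.78% of all genes, and 0 as higher, beside 3.06%.

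Endocytic receptor genes, through which visceral endoderm takes up carrier proteins, had 7 of 9 tested members below 0 and a median log2 fold change of −0.65. Cubn, encoding cubilin, fell: it had 57 and 56 counts in the Trim33-deficient and 1444 and 1321 in the Control libraries (log2 fold change −4.76, SE 0.17, edgeR quasi-likelihood adjusted p = 0.0166). It was the 1 gene of the lists that edgeR called. That call was lost without either Trim33-deficient library, where edgeR called 0 genes of all tested. Amn, encoding amnionless, had 49 and 22 counts in the Trim33-deficient and 747 and 517 in the Control libraries (log2 fold change −4.30, SE 0.34). Lrp2, encoding the receptor megalin, kept 63.3% of its level (log2 fold change −0.66, SE 0.21). Dab2, an endocytic adaptor, was at −1.31 (SE 0.28) and Lrpap1, a chaperone of the receptor family, at −0.65 (SE 0.17), whereas Lrp1 was at 0.27 (SE 0.25). At an unadjusted p under 0.05 edgeR took 5 of the 9 as lower, beside 4.78% of all genes, and 0 as higher, beside 3.06%. DESeq2 called 3 of 9 lower, Cubn, Amn and Dab2, beside 0.702%, and 0 higher.

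Transcription factors known to act on plasma protein genes varied, also within a family. Hnf4a encodes a nuclear receptor of liver, gut and visceral endoderm. It had 77 and 81 counts in the Trim33-deficient and 345 and 440 in the Control libraries, and 17.9% of its level was left. Foxa1 kept 83.2% and overlapped, Foxa2 kept 53.9% and Foxa3 42.7%. Gata4 and Gata6, factors of early endoderm and heart, were at 0.30 (SE 0.33) and 1.004 (SE 0.84) on the log2 scale, and Gata6 had 370 counts in Control replicate 1 against 1704 in replicate 2. Of the list's 20 tested genes 13 were below 0, with a median log2 fold change of −0.43, which ran from −0.73 to −0.18 over 13 alternatives and was nearest to 0 without Control replicate 1. The edgeR test called 0, beside 0.014% of all genes. At an unadjusted p under 0.05 it took 5 as lower, beside 4.78%, and 1 as higher, beside 3.06%. DESeq2 called 2 of 20 lower, Hnf4a among them, beside 0.702%. The choice of Hnf4a and Foxa1 to Foxa3 for display was made with their values known.

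**Figure D4:**
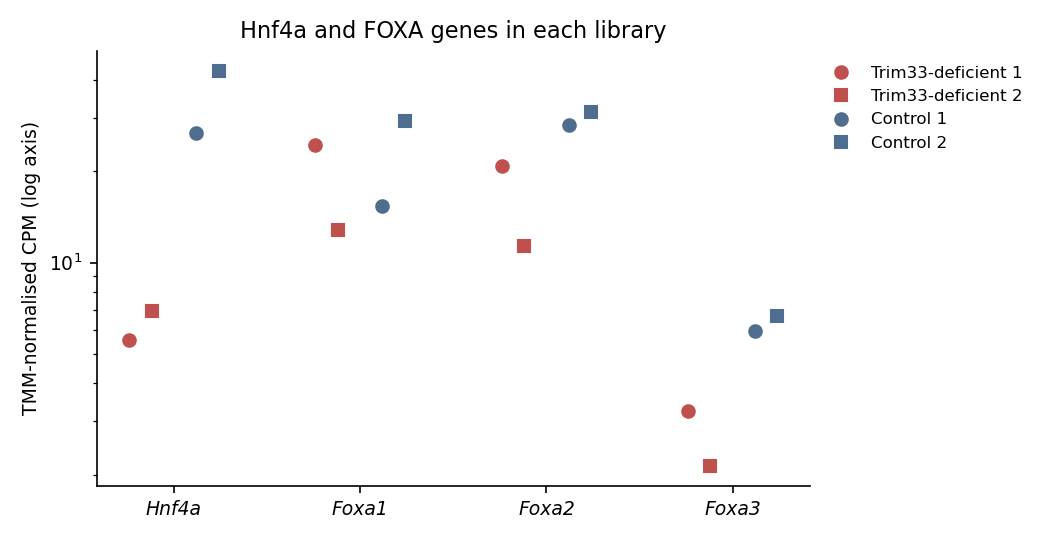
Level of Hnf4a, Foxa1, Foxa2 and Foxa3 in each library, as TMM-normalised CPM on a log axis. Both Trim33-deficient libraries sit below both Control libraries for each gene except Foxa1, which overlaps.

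General secretion genes lay mostly slightly above 0. Of 32 genes for entry into the endoplasmic reticulum and transport to the Golgi, 30 were tested. Of these, 24 were above 0 and 6 below, beside 50.2% of all tested genes below 0. Their median log2 fold change of 0.12 ran from 0.0063 to 0.25 over 13 alternatives. It was nearest to 0 without Trim33-deficient replicate 2. Sec61a1, encoding the translocation channel, was at 0.19 (SE 0.16) and Ssr3, a subunit of the associated complex, at 0.16 (SE 0.18). Both tools called 0 of these. At an unadjusted p under 0.05 edgeR took 0, beside 4.78% of all genes lower and 3.06% higher.

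Visceral endoderm markers were also counted. Their list was chosen with earlier results of these data known, so the counts describe these genes and cannot check the label. It shares 4 genes with the endocytic receptor list and 5 with the transcription factor list, which are counted in both. Of 22 visceral endoderm markers 21 were tested, 16 of them below 0, with a median log2 fold change of −1.14. Their summed level was 945 to 980 CPM in Trim33-deficient and 1576 to 2289 CPM in Control libraries. The edgeR test called 1 of the 21 lower, Cubn, beside 0.014% of all genes, and took 13 as lower at an unadjusted p under 0.05, beside 4.78%. DESeq2 called 9 lower, beside 0.702%, and 0 higher. In 14 the groups did not overlap, with Trim33-deficient libraries lower, beside 21.4% of all genes. The part of a smaller amount of visceral endoderm in the lower carrier levels was not tested. Apoe, a lipoprotein gene, was at −1.14 (SE 0.19). The 5 tested markers above 0 were Gata6 (1.004), Hhex (0.33), Gata4 (0.30), Cer1 (0.09) and Lhx1 (0.08), all with overlapping groups. Hepatocyte markers were mostly at or near 0: 5 of 17 were tested, and 6, among them Hpd, Cyp7a1, Cyp3a11 and Cyp2e1, were at 0 in all libraries. Their summed level was 25.9 to 39.0 CPM in Trim33-deficient and 34.1 to 72.4 CPM in Control libraries. The median log2 fold change of the tested ones was −0.44, from −1.42 to 0.27 over 13 alternatives.

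Markers of other cells that can express a carrier were measured as well. The 13 parietal endoderm markers, which mark the sister lineage of visceral endoderm, summed to 4165 to 5866 CPM in Trim33-deficient and 4380 to 5162 CPM in Control libraries, with a median log2 fold change of 0.03 that ran from −0.096 to 0.15 over 13 alternatives. Definitive endoderm markers had 8 of 12 tested below 0 and a median of −0.49, from −0.82 to −0.23 over 13 alternatives, with 322 to 405 CPM in Trim33-deficient and 385 to 514 CPM in Control libraries. The choroid plexus, an epithelium of the brain, also makes Ttr. Its 9 markers summed to 106 to 141 CPM in Trim33-deficient and 261 to 365 CPM in Control libraries, with 5 of 6 tested below 0 and a median of −1.15. That median ran from −1.55 to −0.44 over 13 alternatives and was −0.44 without Control replicate 1. Among them Clic6 was at −1.68 (SE 0.32) and Otx2 at −1.49 (SE 0.56), with Otx2 running from −2.06 to −0.50 over the left-out libraries, while Kcne2 was at 0 and Kl had at most 4 counts. Their part in the lower Ttr level was not tested. Oligodendrocytes also make transferrin, and their 8 markers summed to 268 to 515 CPM in Trim33-deficient and 126 to 376 CPM in Control libraries, with a median of −0.17 that ran from −0.20 to 0.096 over 13 alternatives. Myrf alone was at 208 and 461 CPM in Trim33-deficient and 38.9 and 319 CPM in Control libraries.

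**Figure D5:**
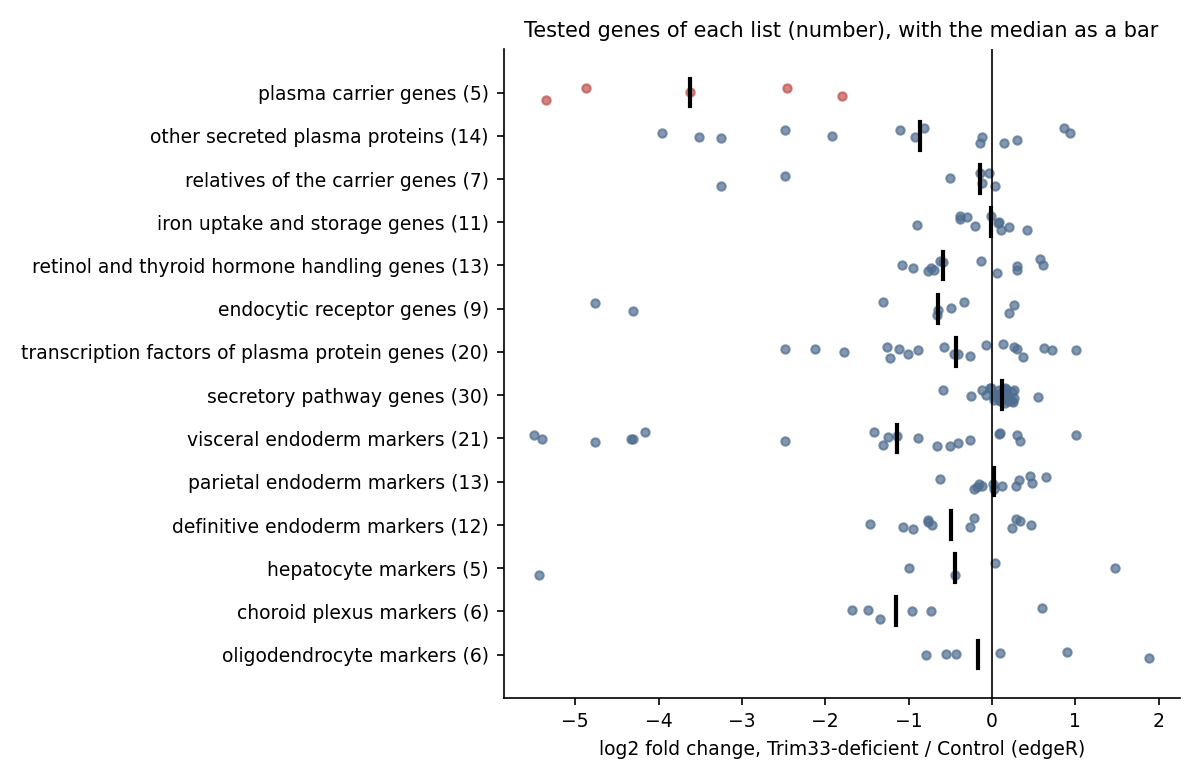
The edgeR log2 fold change, Trim33-deficient over Control, of each tested gene in the carrier set and in 13 other lists (points), with the list's median as a bar. The 5 carriers lie between −5.36 and −1.80, whereas secretory pathway genes lie around their median of 0.12.

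The genes whose profile over the 4 libraries was most like the median carrier profile were found by Euclidean distance on centred log2 CPM, over 4 libraries and among genes of at least 2 CPM. They were F2 at a distance of 0.207, Cldn2 at 0.477, Pla2g12b at 0.559, Slc13a4 at 0.610, S100g at 0.673, Soat2 at 0.725, Slc39a5 at 0.737 and Muc13 at 0.745. Trf, at 0.135, was the carrier nearest to that median, and Rbp4, at 1.96, the farthest. F2 encodes prothrombin, another plasma protein, and had 7 and 10 counts in the Trim33-deficient and 122 and 95 in the Control libraries. Cldn2 encodes a tight junction claudin of absorptive epithelia, with 21 and 23 counts in the Trim33-deficient and 213 and 229 in the Control libraries. S100g encodes a calcium-binding protein of absorptive epithelia, with 52 and 40 counts in the Trim33-deficient and 439 and 254 in the Control libraries. The other genes were similar in level, between 11 and 66 counts in each Trim33-deficient library.

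The authors' deposited table holds 84 genes, 70 of them lower in Trim33-deficient bodies, and 4 carriers are among them. In the authors' deposited table Trf stands 4th by adjusted p (1.01e-15), with a log2 fold change of −3.61. Afp stands 7th in the authors' deposited table (log2 fold change −4.86, adjusted p 1.83e-10), Spp2 17th (−5.32, adjusted p 5e-06) and Ttr 44th (−2.45, adjusted p 0.00191). Rbp4 is not in the authors' deposited table.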

How the data were processed

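The carrier genes and all lists were chosen with earlier results of these data known, and some lists share genes. Illumina libraries were made from total RNA, per the labels' protocols. STAR, HTSeq, DESeq and build mm9 appear, without versions or roles, per the submitters' processing notes. The deposited counts are whole reads for each gene symbol with no scaling. The 55.5% to 56.0% of reads in no feature and the ambiguous reads, at most 0.200%, were left out. Whether counting used strand is not stated, so a gene and its antisense partner may share reads. From the authors' deposited table the fold ratio, log2 fold change and p-values were used. For 83 genes with a fold above 0, that fold matched the ratio of size-factor means, Trim33-deficient to Control, within 0.257%, which set the table's direction.

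Low counts were removed by filterByExpr (14259 genes left). The rest were scaled by TMM and tested over all of them with edgeR 4.0.16 in R 4.3.3 (quasi-likelihood test, two-sided, Benjamini-Hochberg, threshold 0.05), without a replicate block. Alternatives used DESeq2 1.42.0, limma 3.58.1, other scalings and filters, the block and each library left out. A library left alone in its group borrowed the spread of the remaining libraries. Named genes were the carriers, Trim33, up to 4 genes of highest mean CPM per list, genes that edgeR called, neighbours and look-alikes; the other genes named were chosen after their values were seen. Transcript lengths were the longest in GENCODE M21, matched for 98.5% of genes. Promoters are from RefSeq, and protein sequences were not used here. A few genes of the lists are not reported here by name.

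Replicates were no duplicates (chi-square per degree of freedom 20.8 in Trim33-deficient and 30.4 in Control libraries). The labels mention independent pairs without saying which libraries form them or whether cultures were separate, so p-values reflect only how these libraries vary. Intervals and floors cover counting error only.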

Additional observations from a re-analysis of the deposited data

How the results depend on the processing

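The number of genes called depended on the method. The edgeR quasi-likelihood test called 2 genes; DESeq2 called 136, edgeR's likelihood ratio test 169, limma voom 0, edgeR without a low-count filter 14 and with the stricter filter 1. Leaving out 1 library moved the count between 0 and 91: it was 10 without Control replicate 1, 91 without Control replicate 2, and 0 without Trim33-deficient replicate 1 or 2. Of the carriers, edgeR called Afp and Trf without the filter or without Control replicate 1, and Afp, Ttr and Trf without Control replicate 2. With the replicate block, which pairs libraries by number, edgeR called 2 genes and 0 of 5 carriers, and the median carrier log2 fold change was −3.62. Both genes called with the block were those called without it. Across genes, deviations from the group means had a Pearson correlation of 0.236 and a Spearman correlation of 0.207 between libraries of one number. The carrier median was −3.04 with the stricter filter, which removes Spp2. The log2 fold changes of the 5 tested carriers were below 0 in all alternatives that tested them. Afp ranged from −5.12 to −4.56, Ttr from −2.77 to −2.13, Trf from −3.76 to −3.48 and Rbp4 from −2.22 to −1.22. Spp2 was at −4.29 without Trim33-deficient replicate 1, and at −9.73 without replicate 2, where the only Trim33-deficient library left had 0 counts and the fitted value is no bound. The summed carrier level left was between 12.3% and 12.7% under the 4 scalings. Protein identity between carriers was planned and not run. Depth limits Ahsg and Alb, whose counts cannot show or exclude moderate differences. For Ambp the interval, for counting error only, spans levels 1.95-fold to 23.2-fold lower. DESeq2 gave Ambp an adjusted p and did not call it.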
